A study of Mus musculus with 12 samples.

Results

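Reelin signalling was followed through 6 genes of the deposited count table, chosen by gene symbol out of 34102 genes: the ligand Reln, its receptor genes Vldlr and Lrp8, the adaptor gene Dab1, and the adaptor genes Crk and Crkl. The set was proposed with the low Reln level in neural progenitor cells (NPC) labelled as Srsf10 knockdown already known. The NPC comparison of these 6 genes is therefore given as a description without p-values. The cortex comparison did not choose them and was tested, though earlier results of these data were known when they were chosen. All 6 passed the filter on low counts in both comparisons.

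Reelin is a large secreted glycoprotein that guides migrating neurons into layers of the developing cortex. It is made mainly by Cajal-Retzius cells at the cortical surface and later by interneurons. It binds the VLDL receptor and apolipoprotein E receptor 2 (the product of Lrp8), whose tails hold the adaptor Dab1. Kinases of the Src family then phosphorylate Dab1, which recruits Crk and CrkL and so reaches the small GTPase Rap1, while a second arm runs through PI3 kinase and Akt. Loss of reelin, of Dab1, or of both receptors together inverts cortical layers in mice.

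The 12 libraries, all from C57BL/6 mice, were total RNA of 4 groups of 3. Cortex labelled cKO (conditional knockout) carried Srsf10 flox/flox with the Nestin-Cre transgene, and control cortex carried Srsf10 flox/flox without it. The transgene directs Cre to neural progenitors and so to the cells they form. Since no group had it without floxed Srsf10, its own effect and loss of Srsf10 cannot be told apart. NPC labelled knockdown were infected with a lentivirus against Srsf10, and NPC labelled WT served as controls. Both were primary cultures from cortex, grown with bFGF and EGF, and their RNA was taken 72 h after infection at a multiplicity of 30. The labels do not say which virus the control cells received, give no age for the mice, and do not state that each library was a separate animal or culture, so p-values measure the spread between these libraries.

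Libraries held 26074094 to 36713205 counts. Levels are in CPM, a gene's count scaled to a fixed library size, after TMM scaling of all 12 libraries, which corrects for differences in RNA composition. A gene is said to be called, or to have risen or fallen, at an adjusted p under 0.05. For the 6 genes in NPC such calls are descriptions only, since the NPC values had chosen the genes. The pathway and marker lists were written with earlier results of these data known, so p-values of their genes are descriptions too. Srsf10, which encodes an SR splicing factor, stood at 186 to 219.6 CPM in cKO cortex and 196 to 215 CPM in control cortex. It stood at 221 to 241 CPM in NPC labelled knockdown and 228 to 253 CPM in control NPC. A lower Srsf10 count was thus not detected in either comparison without pairs (by edgeR the log2 fold change was 0.03 in cortex, with adjusted p = 0.917, and -0.05 in NPC, with adjusted p = 0.774), and all directions below rest on the labels. Between same-numbered NPC libraries Srsf10 was slightly lower in all 3 pairs, at 0.949, 0.974 and 0.969 of the control. The summed level of 6 neuron markers, among them Tubb3 and Dcx, was 7400 to 7682 CPM in cKO cortex and 7568 to 7837 CPM in control cortex, and at most 35.5 CPM in any NPC library. The summed level of 6 radial glia and progenitor markers was 7059 to 8234 CPM in NPC labelled knockdown and 7063 to 7291 CPM in control NPC, mostly from Fabp7, Nes and Slc1a3, with Pax6 at 21.4 to 34.6 CPM and 25.3 to 28.3 CPM in those groups. Sox2 of that list stood at 246.5, 199.7 and 188.6 CPM in NPC labelled knockdown, below 307.5, 291.3 and 299.5 CPM in control NPC. With same-numbered libraries as pairs, edgeR called Sox2 lower and Nes higher, beside 12.8% and 11.9% of all genes. Without pairs edgeR called 0 of the 6, and DESeq2 called Sox2 alone, beside 6.96% of all genes.

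Reln (ENSMUSG00000042453, chromosome 5, 21884454 to 22344702, minus strand, mm10) was abundant in cortex and scarce in the cultured progenitors. It stood at 428, 461 and 385 CPM in cKO cortex and at 384, 412 and 368 CPM in control cortex. In NPC labelled knockdown it stood at 3.08, 5.45 and 4.18 CPM, from 80, 165 and 113 counts. In control NPC it stood at 12.7, 13.1 and 18.0 CPM, from 348, 339 and 521 counts. The cortex groups overlapped, while each NPC library labelled knockdown lay below each control NPC library. The Reln model shares exon bases with the antisense gene Gm10475, which was not analysed here. How strand was handled in the counting is not stated, so reads of both genes could not be told apart.

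The NPC difference in Reln corresponded to a level of 0.292 of the control (log2 fold change -1.78, SE 0.23, 95% interval -2.32 to -1.23, n = 3 each). Same-numbered NPC libraries shared deviations across genes, so they were also compared as pairs, which gave -1.78 with a smaller SE of 0.15 (95% interval -2.11 to -1.45). The ratio of knockdown to control was 0.243 in pair 1, 0.416 in pair 2 and 0.232 in pair 3. All 3 pairs were lower, by unequal amounts. With the 6 libraries unpaired, Reln was not called without control replicate 2, without control replicate 3 or without knockdown replicate 3, at log2 fold changes of -1.84, -1.60 and -1.76.

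In cortex, Reln averaged 424 ± 38.0 CPM in cKO libraries and 388 ± 22.2 CPM in control libraries (SD, n = 3 each). By the edgeR quasi-likelihood test this was 0.14 on the log2 scale (SE 0.08, 95% interval -0.04 to 0.31, adjusted p = 0.566), so a change of Reln in cortex was not detected. A fall of the size seen in NPC lies outside that interval. Whether the cortex and NPC differences differ from each other was not tested, since the NPC value had chosen the gene. In bulk samples, fewer cells that make reelin and less Reln RNA per cell cannot be told apart.

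**Figure D1:**
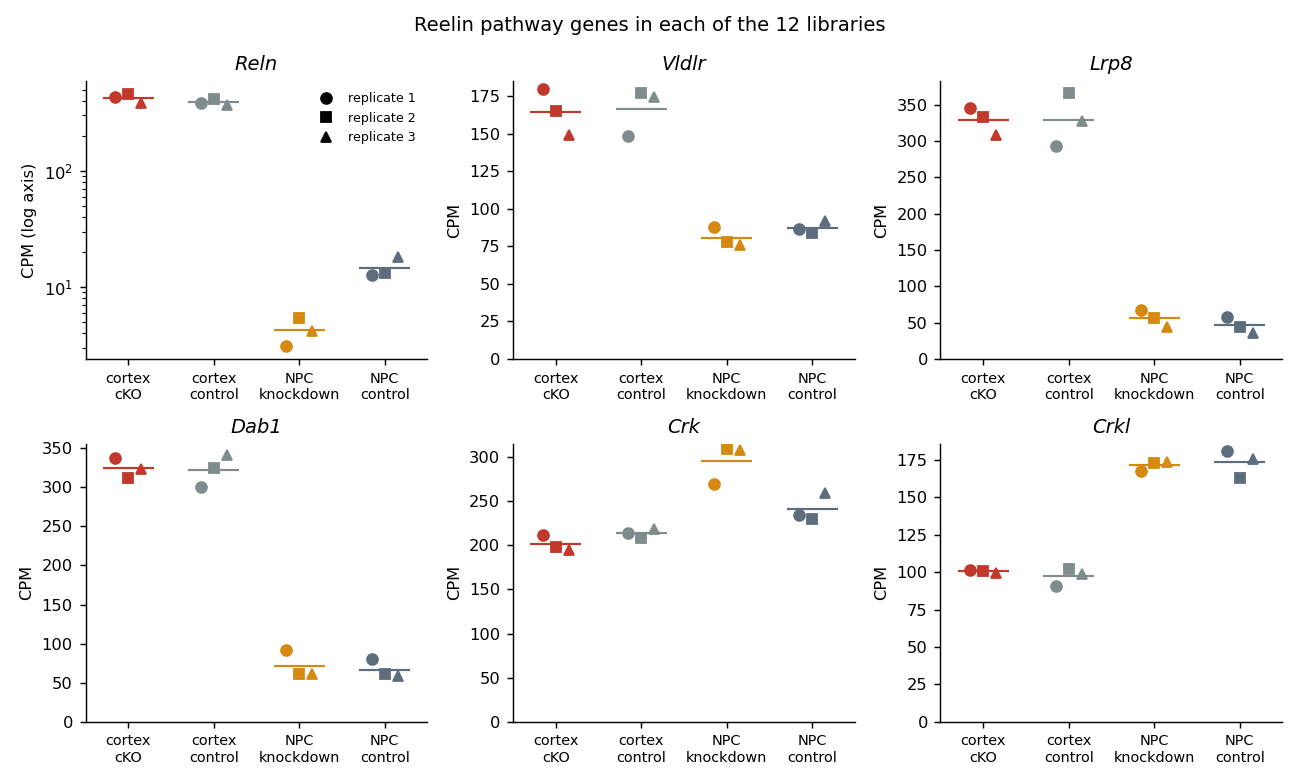
Level of each gene (CPM after TMM scaling) in the 12 libraries, with the groups along the horizontal axis, a symbol per replicate number and a line at the group mean. The vertical axis is logarithmic for Reln and starts at 0 for the other genes. Reln stands at 3.08 to 5.45 CPM in NPC labelled knockdown, below all control NPC libraries, and the cortex groups overlap for every gene shown.

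Vldlr (chromosome 19, 27216484 to 27254231, plus strand), the receptor gene whose product also takes up lipoproteins, had overlapping values in both comparisons. It stood at 179.7, 165 and 149 CPM in cKO cortex and at 148, 177 and 174 CPM in control cortex. In NPC it stood at 88.0, 77.6 and 75.6 CPM in libraries labelled knockdown and at 86.7, 83.8 and 91.9 CPM in control libraries. Replicate 1 was highest in cKO cortex and lowest in control cortex. In cortex edgeR gave -0.01 on the log2 scale (SE 0.09, 95% interval -0.20 to 0.18, adjusted p = 0.978). The NPC value was -0.11 (SE 0.08), and -0.12 (SE 0.06) as pairs, with pair 1 slightly higher and pairs 2 and 3 lower.

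Lrp8 (chromosome 4, 107802261 to 107876840, plus strand), the other receptor gene, was not called in cortex and was higher in each NPC pair. It stood at 345, 333 and 309 CPM in cKO cortex and at 293, 366 and 327 CPM in control cortex (log2 difference 0.01 with SE 0.09 and interval -0.18 to 0.20, edgeR adjusted p = 0.984). In NPC labelled knockdown it stood at 67.4, 56.7 and 43.6 CPM, and in control NPC at 58.0, 44.4 and 36.5 CPM. The NPC groups overlapped and replicate 1 was highest in both, while the library labelled knockdown was above its control in all 3 pairs, with ratios of 1.16, 1.28 and 1.19. As pairs Lrp8 had a value of 0.28 (log2, SE 0.06, 95% interval 0.16 to 0.41). Unpaired it was 0.28 (SE 0.21, 95% interval -0.20 to 0.76), and there it depended on single libraries: it was 0.12 without knockdown replicate 1, 0.14 without control replicate 3, 0.43 without knockdown replicate 3 and 0.47 without control replicate 1.

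Annotated 3′ UTRs of the 6 genes were searched for ACCGAC and CCGACT, because these hexamers had been singled out earlier in genes that were lower in the same NPC libraries. They overlap by the letters CCGAC, and only the transcript strand was read, in the longest annotated 3′ UTR of each gene. Neither stood in the 1019 bases of Reln, nor in the 3′ UTRs of Vldlr, Dab1, Crk and Crkl. Lrp8 held ACCGAC at base 2525 of its 4529-base 3′ UTR (transcript Lrp8-202, chromosome 4), shown with 8 bases on either side and the hexamer in capitals, as the one match among the 6 genes:
Lrp8: gggaccagACCGACctccttct
Of 12715 genes tested in NPC with an annotated 3′ UTR, 13.2% held at least 1 of the hexamers. The share was 10.4% among UTRs of 500 to 2000 bases, as long as that of Reln, and 27.5% among those of 4000 to 6000 bases, as long as that of Lrp8. Nothing is read from these matches about the NPC values.

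Receptor levels per kilobase of exon also differed in their order between tissue and culture. Lrp8 stood at 1.92 ± 0.0743 times the level of Vldlr in cKO cortex and at 1.89 ± 0.0935 times in control cortex (CPM per kb, SD over 3 libraries). In NPC the same ratio was 0.662 ± 0.0964 in libraries labelled knockdown and 0.509 ± 0.130 in control libraries (SD, n = 3 each). Lrp8 was thus the higher of the receptor transcripts per kb in all 6 cortex libraries, and Vldlr in all 6 NPC libraries. The NPC ratio overlapped between groups, and each pair had the larger ratio in the library labelled knockdown.

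Dab1 (chromosome 4, 103619359 to 104744844, plus strand), the adaptor that the receptors share, had overlapping groups in both comparisons. It stood at 338, 311 and 324 CPM in cKO cortex and at 301, 325 and 342 CPM in control cortex (log2 difference 0.02 with SE 0.07 and interval -0.14 to 0.17, edgeR adjusted p = 0.958). In NPC it stood at 91.8, 60.8 and 61.7 CPM in libraries labelled knockdown and at 80.8, 60.5 and 58.5 CPM in control libraries. Pair 1 was high in both NPC groups, which overlapped. The paired log2 fold change was 0.10 (SE 0.06, 95% interval -0.03 to 0.22).

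The paralogous adaptors Crk and Crkl, which link phosphorylated proteins to exchange factors, had unlike values in NPC. Crk (chromosome 11, 75679259 to 75706908, plus strand) stood at 270.0, 309 and 308 CPM in NPC labelled knockdown and at 235, 230.3 and 259 CPM in control NPC. Its groups did not overlap, all 3 pairs were higher, and the log2 fold change was 0.30 both unpaired (SE 0.08) and as pairs (SE 0.05). Crkl (chromosome 16, 17451987 to 17487434, plus strand) stood at 168, 173 and 173 CPM in NPC labelled knockdown and at 181, 163 and 176 CPM in control NPC. Those groups overlapped, and the paired log2 fold change was -0.01 (SE 0.05, 95% interval -0.12 to 0.10). The ratio of Crk to Crkl per kb of exon was accordingly 1.84 ± 0.109 in NPC labelled knockdown and 1.48 ± 0.0971 in control NPC (SD, n = 3 each).

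Neither adaptor was called in cortex. Crk stood at 211, 198 and 194 CPM in cKO cortex and at 214, 209 and 218 CPM in control cortex (log2 difference -0.08 with SE 0.06 and interval -0.21 to 0.05, edgeR adjusted p = 0.661). Crkl stood at 102, 100.5 and 99.3 CPM in cKO cortex and at 90.8, 102 and 99.1 CPM in control cortex (log2 difference 0.05 with SE 0.07 and interval -0.10 to 0.20, edgeR adjusted p = 0.825). Both sets of values overlapped.

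In cortex 0 of the 6 genes passed the edgeR test at an adjusted p under 0.05, where 0.171% of all 15781 tested genes did. DESeq2 also called 0, where it called 1.94% of the genes it tested, and 0 had an unadjusted p under 0.05. In NPC without pairs 1 of 6 was called, Reln, where 1.89% of 14258 tested genes were, 1.54% as lower. DESeq2 called Reln and Crk, and 6.96% of the genes it tested. With the replicate numbers as pairs 3 of 6 were called, Reln lower and Lrp8 and Crk higher, where 24.7% of tested genes were, 11.9% as higher and 12.8% as lower. The groups did not overlap for Reln and Crk in NPC, where 23.5% of tested genes had groups that did not overlap, 10.1% higher and 13.4% lower. Because these NPC values were in view when the genes were chosen, nothing is read from the NPC counts.

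**Figure D2:**
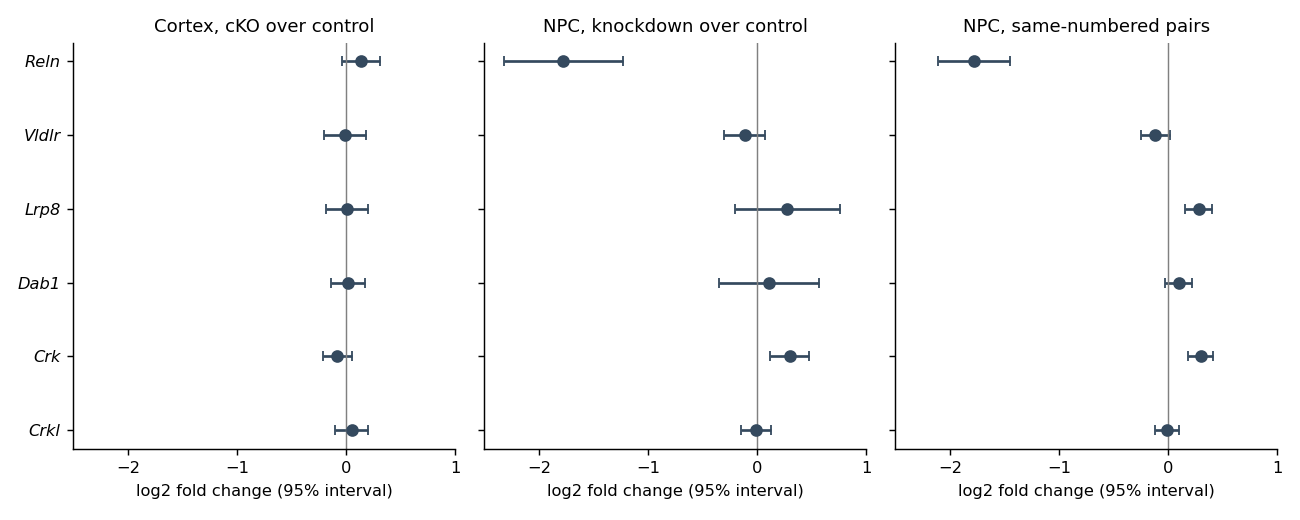
Log2 fold change of each gene, treated over control, with its 95% interval from edgeR, in cortex (left), in NPC without pairs (middle) and in NPC as same-numbered pairs (right). Every cortex interval spans 0, and Reln in NPC lies at -1.78 while the other genes lie between -0.12 and 0.30.

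Per kb of annotated exon, the adaptor gene Crk came first in every group and the ligand gene Reln came last or next to last. All annotated exons of a gene were merged for this, giving 23738 bases for Reln, 4730 for Crk and 5042 for Crkl. A transcript can be shorter than its gene's merged exons, so the order between genes depends on the length used. In cortex labelled cKO the order was Crk at 42.5 ± 1.90, Dab1 at 41.0 ± 1.68, Lrp8 at 31.3 ± 1.75, Crkl at 19.9 ± 0.245, Reln at 17.9 ± 1.60 and Vldlr at 16.4 ± 1.52 CPM per kb (SD, n = 3). Control cortex had the same first 4 genes in that order, with Vldlr and Reln at 16.5 ± 1.57 and 16.3 ± 0.933 CPM per kb. Libraries of Reln and Vldlr overlapped in both cortex groups, and those of Crk and Dab1 in cKO cortex, while the other neighbours did not overlap. In NPC the order was Crk, Crkl, then Dab1 and Vldlr with overlapping libraries, then Lrp8, and Reln last at 0.178 ± 0.0499 CPM per kb in libraries labelled knockdown and 0.615 ± 0.124 CPM per kb in control libraries (SD, n = 3 each).

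Across the systems, Reln had the widest range of the 6 genes. Its mean level in control cortex was 26.6 times that in control NPC, against 7.10 times for Lrp8, 4.84 times for Dab1 and 1.90 times for Vldlr. Crk and Crkl went the other way, at 0.884 and 0.561 of the control NPC level. Libraries of the systems did not overlap for any of the 6 genes. Tissue and culture were separate experiments, and whether both were counted alike was not tested, so these ratios describe the libraries only.

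Summed markers of cells known to make reelin were lower in the cultures than in cortex, though not every marker was. Of 8 Cajal-Retzius markers, Nhlh2 was at 0 in all 6 NPC libraries. Trp73, a p53 family member, stood at 0.655 to 0.813 CPM in NPC labelled knockdown and 0.863 to 1.06 CPM in control NPC (paired log2 fold change -0.36, SE 0.31, edgeR adjusted p = 0.453). Calb2, at most 0.616 CPM in NPC, was higher in all 3 pairs, with ratios of 1.69, 2.35 and 1.07. Lhx1 and Lhx5 stood at 0 to 0.259 CPM in NPC. Ebf3, a transcription factor that is not limited to these cells, made up most of the sum over the list, which was 17.7 to 25.9 CPM in libraries labelled knockdown and 24.1 to 29.8 CPM in control libraries. Ebf3 averaged 18.25 CPM in NPC labelled knockdown and 24.06 CPM in control NPC, above 7.18 CPM in cKO cortex and 4.43 CPM in control cortex. The mean of Ebf2 was also higher in NPC than in cortex, with overlapping libraries of at most 2.475 CPM. As pairs, Ebf3 fell by 0.41 (log2, SE 0.08, adjusted p = 0.00312 by edgeR) and Ndnf, a secreted factor, rose by 0.82 (SE 0.26, adjusted p = 0.0348), both uncalled without pairs. Over all genes 12.8% were called lower and 11.9% higher as pairs. Of 8 interneuron markers Lhx6 was at 0 in every NPC library and Sst in every control NPC library. The sum of this list was 10.4 to 15.3 CPM in libraries labelled knockdown and 12.9 to 14.0 CPM in control libraries. Gad2, the gene of a GABA-making enzyme, stood at 0.924, 0.198 and 0.555 CPM in NPC labelled knockdown, below 1.39, 1.58 and 1.21 CPM in control NPC, and fell by 1.38 as pairs (SE 0.41, adjusted p = 0.0246). It was not called without pairs (adjusted p = 0.215). The other 3 tested interneuron genes were not called, and Dlx2 was higher in all 3 pairs (paired 0.24, SE 0.20, adjusted p = 0.412), Dlx1 in 2 and Gad1 in 1. The part of these cells in the low Reln level was not tested.

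Other marker lists differed with the NPC label in their sums, each through a few genes. The 4 astrocyte markers summed to 666 to 876 CPM in libraries labelled knockdown and 520 to 618 CPM in control libraries, most of it from Aldh1l1. As pairs Aldh1l1, Aqp4 and S100b were called higher, while Gfap, the defining filament gene, was called lower (-0.73, SE 0.18, adjusted p = 0.0104 by edgeR). Over all genes edgeR called 11.9% higher and 12.8% lower as pairs, and 1.89% in either direction without pairs. Without pairs it called 0 of the 4 astrocyte markers. Oligodendrocyte lineage markers summed to 2979 to 3046 CPM in libraries labelled knockdown and 2846 to 2934 CPM in control libraries, nearly all from Olig1 and Olig2, which were not called. Pdgfra of the same list was called lower as pairs (-0.58, SE 0.10, adjusted p = 0.000977 by edgeR), and without pairs edgeR called 0 of these 6 markers. Endothelial markers summed to 9.37 to 11.2 CPM in libraries labelled knockdown and 15.3 to 20.5 CPM in control libraries. That gap lay in Flt1, a VEGF receptor gene called lower with and without pairs, which averaged 6.68 CPM in libraries labelled knockdown and 14.8 CPM in control libraries. Kdr averaged 2.90 CPM in libraries labelled knockdown and 2.88 CPM in control libraries, and Pecam1 averaged 0.494 CPM and 0.312 CPM in those groups. The part of these cells in the values of the 6 genes was not tested.

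In cortex, neither list of reelin-making cells held a gene called by edgeR, though their medians differed in sign. Trp73 stood at 16.89, 15.29 and 14.85 CPM in cKO cortex and at 11.33, 14.76 and 9.99 CPM in control cortex, with groups that just did not overlap (log2 fold change 0.39, SE 0.15, edgeR adjusted p = 0.393). Ebf3 stood at 7.71, 7.38 and 6.45 CPM in cKO cortex and at 4.40, 5.10 and 3.80 CPM in control cortex (0.70, SE 0.18, edgeR adjusted p = 0.170, called by DESeq2). The other Cajal-Retzius markers had overlapping groups. Lhx1 and Lhx5 averaged 0.747 and 2.09 CPM in cKO cortex, below 0.837 and 2.20 CPM in control cortex. Calb2 and Ndnf averaged 30.0 and 64.3 CPM in cKO cortex and 27.6 and 60.8 CPM in control cortex. The median over the 8 markers was 0.26, against 0.00 over all tested genes, with 6 values positive and 2 negative. Of them 0 were called by edgeR, 2 had an unadjusted p under 0.05, as 10.9% of all tested genes had, and DESeq2 called 1. The 8 interneuron markers summed to 420 to 458 CPM in cKO cortex and 504 to 537 CPM in control cortex, with a median log2 fold change of -0.35. Of them 0 were called by edgeR, 4 had an unadjusted p under 0.05 (Gad2, Dlx1, Dlx2 and Lhx6, all lower) and DESeq2 called the last 3, where it called 1.94% of all genes. Gad1 and Dlx5 had values of -0.06 and -0.29, and Sst and Npy had positive values of 0.24 and 0.02. Radial glia markers summed to 1254 to 1296 CPM in cKO cortex and 1309 to 1448 CPM in control cortex, and oligodendrocyte lineage markers to 223 to 226 CPM in cKO cortex and 262 to 281 CPM in control cortex, with Gpr17 called lower. Meningeal fibroblast markers summed to 111 to 171 CPM in cKO cortex and 20.5 to 156 CPM in control cortex, lowest in control replicate 2, with 5 of 5 values positive and a median of 0.52. Erythroid markers summed to 6.84 to 11.7 CPM in cKO cortex and 7.79 to 36.7 CPM in control cortex, highest in control replicate 1, with 4 of 4 values negative and a median of -1.20. In these last lists edgeR and DESeq2 called 0 genes, and Hba-a1 alone had an unadjusted p under 0.05. The part of these cells in the Reln value was not tested. The groups did not overlap for 17.3% of all tested cortex genes. Choroid plexus markers summed to more than 1000 CPM in cKO replicate 3 and control replicate 2. Without those libraries the Reln value was 0.24 (log2, SE 0.08, adjusted p = 0.206 by edgeR).

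The rest of the pathway was followed in 84 further genes in 9 lists, of which 82 were tested in each comparison. In cortex edgeR called 0 of 82, beside 0.171% of all genes. An unadjusted p under 0.05 was found for 7 of 82, beside 10.9% of all genes, and DESeq2 called Cdk5 alone, beside 1.94%. Their median log2 fold change was 0.01, against 0.00 over all genes. Cdk5, a neuronal kinase that phosphorylates Dab1 on serine and acts beside reelin in migration, stood at 63.0, 58.8 and 65.4 CPM in cKO cortex, below 90.7, 76.9 and 74.2 CPM in control cortex (log2 fold change -0.36, SE 0.10, edgeR adjusted p = 0.185). In NPC edgeR called 4 of 82 without pairs, all lower: Map1b, Nrp1, Pik3ca and Pik3r2, beside 1.54% of all genes called lower. With pairs it called 26 of 82 (7 higher, 19 lower), beside 24.7% of all genes, and DESeq2 without pairs called 12, beside 6.96%. The lists were written with earlier results of these data known, so their counts and the p-values of their genes are descriptions.

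Proteins that meet reelin or its receptors outside the cell were mixed in NPC. Nrp1 encodes neuropilin 1, a semaphorin receptor that also binds VLDLR. It stood at 14.8, 13.9 and 13.0 CPM in NPC labelled knockdown, below 22.2, 23.8 and 23.1 CPM in control NPC (log2 fold change -0.72, SE 0.09, edgeR adjusted p = 0.0115 without pairs). Itga3, an integrin subunit that binds reelin, was called lower as pairs only (-1.07, SE 0.28) at levels of at most 2.49 CPM. Thbs1 and Efnb1, a thrombospondin that binds both receptors and an ephrin, were called higher as pairs (0.70, SE 0.11, and 0.24, SE 0.07). Of the 13 genes listed for receptor partners and turnover, 2 were called higher and 2 lower as pairs. Of 6 genes for enzymes that cleave reelin or its relatives, Plat (tissue plasminogen activator) was called lower as pairs (-0.27, SE 0.05), and 0 were called without pairs. Over all genes 11.9% were called higher and 12.8% lower as pairs. In cortex the protease gene Adamts4 stood at 4.79, 3.98 and 3.67 CPM in cKO libraries, below 7.64, 6.64 and 5.27 CPM in control libraries, at an edgeR adjusted p of 0.264 (-0.65, SE 0.20).

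Inside the cell, the kinases next to Dab1 were not called in NPC. The PI3 kinase, Crk and cytoskeletal lists each held more genes called lower than higher as pairs. Fyn, the main Dab1 kinase, stood at 567 to 632 CPM in NPC labelled knockdown and 592 to 628 CPM in control NPC (paired log2 fold change -0.01, SE 0.05, adjusted p = 0.869 by edgeR). Src, a further kinase of Dab1, stood at 128 to 152 CPM in NPC labelled knockdown and 146 to 164 CPM in control NPC (-0.13, SE 0.05, adjusted p = 0.0836 as pairs). By edgeR with or without pairs and by DESeq2, 0 of the 3 Src family genes were called in NPC, and 0 had an unadjusted p under 0.05 without pairs. Of 13 genes of the PI3 kinase, Akt and Gsk3 arm, 3 were called lower without pairs and 5 as pairs, with none called higher, beside 1.54% and 12.8% of all genes called lower in those fits. Pik3ca, a catalytic subunit of PI3 kinase, stood at 72.2, 68.2 and 76.4 CPM in libraries labelled knockdown and 96.7, 94.2 and 104 CPM in control libraries (-0.44, SE 0.07, adjusted p = 0.0325 without pairs). Its regulatory partners Pik3r1 and Pik3r2 had paired values of -0.50 (SE 0.08) and -0.29 (SE 0.05). Map1b, a microtubule protein whose phosphorylation reelin raises, stood at 113, 117 and 125 CPM in libraries labelled knockdown, below 214, 201 and 228 CPM in control libraries (-0.85, SE 0.07, adjusted p = 0.00555 without pairs).

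Of 13 genes listed for the arm of Crk and Rap1, not all of them placed after Crk, 5 were called lower and 1 higher as pairs. Over all genes the shares were 12.8% and 11.9%. Without pairs edgeR called 0, with 5 at an unadjusted p under 0.05, beside 18.3% of all genes, and DESeq2 called 4, beside 6.96%. The scaffold gene Bcar1 (p130Cas) had a paired log2 fold change of -0.49 (SE 0.06), the kinase gene Abl2 -0.43 (SE 0.05), Elmo1, a partner of the exchange factor Dock1, -0.44 (SE 0.06), and the focal adhesion gene Pxn -0.40 (SE 0.07). Rapgef1 (C3G), the exchange factor that joins Crk to Rap1, was also among the 5. Rap1a itself was the gene called higher (0.22, SE 0.06). Among 16 genes of the cytoskeletal and Lis1 arm, Cdk5, Wasl and Cfl1 were called lower as pairs (-0.45, -0.21 and -0.16) and Nde1 higher (0.16). Of 4 tested genes for turnover of Dab1, Rnf7, a RING subunit of the ligase that degrades phosphorylated Dab1, was called higher as pairs (0.21, SE 0.05).

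**Figure D3:**
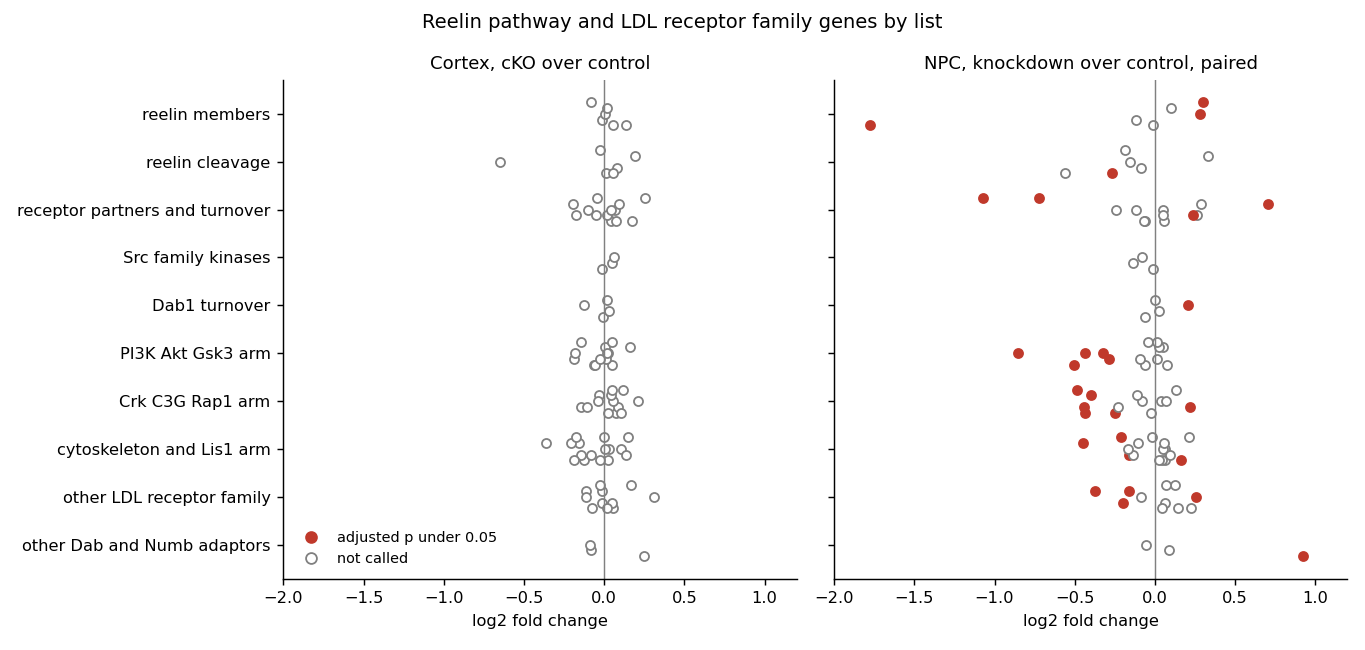
Log2 fold change of each tested gene of 10 lists (points), in cortex from edgeR without pairs (left) and in NPC from edgeR with same-numbered pairs (right). Filled points are genes with an adjusted p under 0.05, of which there are 0 in cortex, and in NPC 3 of the 6 reelin genes and 26 of the 82 others.

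Vldlr and Lrp8 belong to the LDL receptor family, of which 11 other genes were listed here. As pairs in NPC 1 was called higher and 3 lower, beside 11.9% and 12.8% of all genes. Lrp2 (megalin), an endocytic receptor, stood at 27.9, 25.5 and 23.8 CPM in NPC labelled knockdown and at 26.2, 19.2 and 19.9 CPM in control NPC, which overlapped while all 3 pairs were higher (paired log2 fold change 0.26, SE 0.08, adjusted p = 0.0310 by edgeR). Lrp11 stood at 30.9, 38.8 and 38.0 CPM in NPC labelled knockdown, below 40.8, 51.0 and 48.4 CPM in control NPC (paired -0.38, SE 0.06, adjusted p = 0.000482). Lrp6, a Wnt co-receptor, and Lrp3 were also called lower as pairs (-0.20, SE 0.06, and -0.16, SE 0.05). The other 7 of the 11 listed genes were not called. Without pairs edgeR and DESeq2 called 0 of 11 in NPC, with 1 at an unadjusted p under 0.05 (Lrp11). In cortex edgeR and DESeq2 called 0 of 11, with 0 at an unadjusted p under 0.05.

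**Figure D4:**
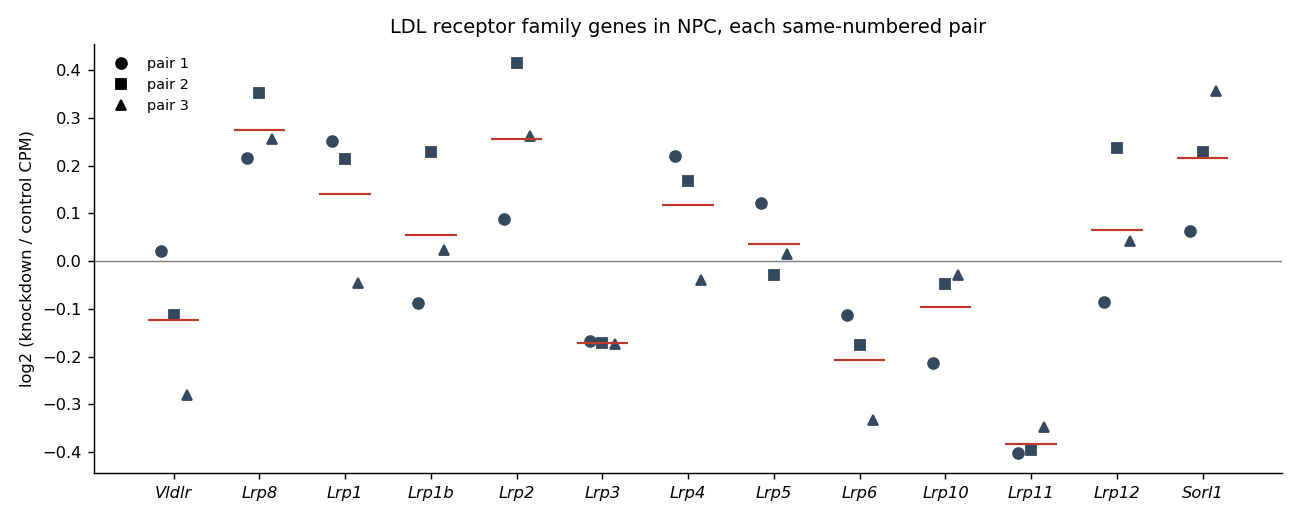
Log2 ratio of CPM, library labelled knockdown over its same-numbered control, for Vldlr, Lrp8 and 11 other genes of the LDL receptor family in NPC. Symbols are pairs and the line is their mean. Lrp8 and Lrp2 are above 0 in all 3 pairs, Lrp11 is below 0 in all 3, and Vldlr lies on both sides of 0.

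Mylip, whose product marks both reelin receptors for degradation, was scarce in NPC. It stood at 0.592 to 1.66 CPM in NPC labelled knockdown and 1.07 to 1.43 CPM in control NPC (paired log2 fold change -0.24, SE 0.30, adjusted p = 0.623 by edgeR). Dab2, a relative of Dab1 that works in receptor uptake, stood at 10.9, 14.5 and 7.65 CPM in NPC labelled knockdown, above 6.31, 6.69 and 4.28 CPM in control NPC. As pairs it rose by 0.92 (SE 0.12, adjusted p = 9.40e-05 by edgeR), and without pairs the value was 0.94 (adjusted p = 0.131).

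Genes with a pattern most like that of each signalling gene were ranked by Pearson correlation of log2 CPM over the 12 libraries, after the mean of each system was removed, among 9840 genes with at least 5 CPM on average in both. These libraries share the NPC contrast and depth, so the values are descriptions. Nearest to Reln were Sipa1l2, a Rap GTPase-activating protein (r = 0.97), Mfhas1 (0.96) and Gmfb, a regulator of actin branching (0.95). Their NPC log2 fold changes without pairs were -0.66, -0.88 and -0.59 and their cortex values lay between -0.04 and -0.02. Mfhas1 and Gmfb held at least 1 of the hexamers above in their 3′ UTR, and Sipa1l2 held none. Of the genes nearest to Vldlr, Lrp8 and Dab1, named next, Prdm2 alone held one. The hexamers came from genes lower in the same NPC libraries, and the genes nearest to Reln share its low NPC values. Nothing is therefore read from these matches. Nearest to Lrp8 were Lin9, a subunit of a cell cycle transcription complex (0.98), Ints7 (0.97) and the proliferation marker Mki67 (0.96). Mki67 averaged 642 CPM in NPC labelled knockdown and 458 CPM in control NPC, and its paired log2 fold change was 0.49 (SE 0.05). Nearest to Dab1 were Slc38a1, Chst3 and Prom1 (0.96, 0.95 and 0.95), and nearest to Vldlr were Ubr4, Prdm2 and Sestd1 (0.96, 0.94 and 0.94). The r of Lrp8 with Dab1 was 0.79, and that of Reln with Crk was -0.66.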

How the data were processed

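Reads were aligned with HISAT2 to mm10, per the submitters' processing notes. No source used here gives the counting program, the strand setting or the annotation behind the counts. The deposited values are unnormalized counts, all whole. All members and gene lists were chosen with earlier results of these data known. Counts were scaled by TMM and filtered by filterByExpr, and each comparison was tested on its own 6 libraries with the quasi-likelihood test of edgeR 4.0.16 (R 4.3.3) and Benjamini-Hochberg adjustment over all genes tested; an adjusted p under 0.05 was called. Adjusted p-values in the report are from edgeR unless DESeq2 1.42.0 is named. Log2 fold changes are treated over control with SE. Exon lengths (all annotated exons of a gene merged), positions and 3′ UTRs (at least 50 bases) came from GENCODE mouse release 21 on mm10, which held 34076 of 34102 identifiers.

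Same-numbered libraries correlated in NPC after group means were removed (0.47, 0.49 and 0.44) but those of cortex did not (0.021, -0.17 and -0.022). NPC results are therefore also given with the replicate number as a block. Replicates of a group differed by more than counting noise in all 12 pairs compared. The fits were also run on simulated counts, where the spread for the paired fit was set and not estimated from these libraries. The outcome is not reported here, and nothing is read from it. Named genes were the 6 members and Srsf10; in each pathway list the genes called, up to 4 a direction by adjusted p; Mylip; the 2 of highest level in a list with none called; Cajal-Retzius and interneuron markers, and the first 2 of other marker lists; and the 3 genes most like Reln, Vldlr, Lrp8 and Dab1. Some genes fixed for naming are not reported here. Adamts4, Rapgef1 and the markers Flt1, Kdr, Gpr17, Pdgfra, Fabp7, Slc1a3, Sox2, Aldh1l1, S100b and Hba-a1 were named after their values were seen. Alternatives were RLE factors, no filter, DESeq2, 1 fit of all 12 libraries, the replicate block, leaving out each library or pair, a term for sex (Ddx3y above 10 CPM taken as male) and leaving out the cortex libraries above 1000 CPM of Ttr. Figures used matplotlib 3.10.9 (Python 3.11.15, pandas 2.3.3, numpy 2.4.6).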

Additional observations from a re-analysis of the deposited data

How the results depend on the processing

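In cortex 0 of the 6 reelin genes were called under each of the 13 alternatives, and the log2 fold change of Reln ran from 0.08 to 0.24. Vldlr, Lrp8, Dab1 and Crkl, whose cortex values lie near 0, took the other sign in 5, 3, 2 and 1 of the 13 alternatives. In NPC the Reln value ran from -2.06 to -1.59 over 14 alternatives, and the number of reelin genes called, 1 without pairs, was 2 with DESeq2, 2 in the fit of all 12 libraries (Reln and Crk in both) and 3 with the replicate block. Leaving out 1 library or pair gave 0 to 4. Lrp8 and Crk kept positive values throughout, and Dab1 took a negative one in 1 alternative. Over all genes, the 27 cortex calls became 156 without the count filter, 308 with DESeq2, 49 in the fit of all libraries, 1 with the replicate block, 12 with sex as a covariate and 0 to 28 without single libraries (0 without cKO replicate 1, 1 without cKO replicate 3, 16 without cKO replicate 2). The 270 NPC calls became 951 with DESeq2, 654 in the fit of all libraries and 3522 with the replicate block, 47 to 304 without single libraries, and 4376, 2170 and 1636 with the block but without pair 1, 2 or 3. The causes were not tested. RLE factors changed no call of the 6 genes. Reln rests on 80 to 521 counts a library in NPC, which limits its precision beside the spread between pairs.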
